A study of Mus musculus with 72 samples.

Results

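The cytotoxic effector genes followed here are 10 genes of killer lymphocytes, GZMA, GZMB, GZMK, PRF1, IFNG, FASLG, NKG7, CD8A, CD8B and CST7, chosen by gene symbol from the 16835 genes of the expression matrix, in which all 10 were found. Their polyadenylated RNA was sequenced in 72 libraries from BALB/c mice bearing tumors of CT26, an established colon carcinoma line of the mouse. There were 24 groups of 3 mice, namely tumors, spleens and the lymph nodes that drain the tumor (TDLN in the labels, nodes here) at study day 23, and nodes of other mice at day 16, each under 6 treatments. The arms were TS/PD1/CYTO, TS/CYTO, PD1/CYTO, PD1, CYTO and the control arm Isotype. All mice carried the tumor, so no group shows a tissue without one, and neither the age of the mice nor doses are given in the labels. The labels do not spell out CYTO and TS, and these names are kept. TS was given only together with CYTO, so there is no arm of TS alone. Values are log2(TPM + 1), where TPM is the share of transcripts after adjustment for gene length, so that levels of different genes can be set side by side. The lowest value in the matrix, 0.01, is called the floor below and means that no or almost no transcript was listed.

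Cytotoxic T cells and natural killer (NK) cells kill mainly by releasing granules that hold perforin (PRF1) and granzymes onto the target. Perforin opens the membrane, and the granzymes, serine proteases, enter and cleave proteins of the target, among them the death proteases cleaved by granzyme B. They can also kill through Fas ligand (FASLG), which binds Fas on the target. Interferon-gamma (IFNG) is the cytokine that both cell types secrete, and it induces antigen presentation and chemokines such as CXCL9 in cells around them. NKG7 is a membrane protein of the granules, and CST7 (cystatin F) inhibits the cathepsins that process granzyme precursors. CD8A and CD8B form the co-receptor of cytotoxic T cells. In mice CD8A alone is also found on a subset of dendritic cells, and granzyme B can also be made by mast cells and plasmacytoid dendritic cells. Because the samples are pieces of whole tissue, fewer cells of a type and less RNA per cell cannot be told apart in any value below.

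By RefSeq on GRCm38.p6, the build that mm10 names, GZMA (chr13:113093824-113100981) and GZMK (chr13:113171630-113180965) are neighbours 70.6 kb apart, with 0 protein-coding genes between them. CD8B (chr6:71322788-71337492) and CD8A (chr6:71373427-71379171) are neighbours 35.9 kb apart, also with 0 between. GZMB lies at chr14:56258836-56262334, PRF1 at chr10:61297751-61304684 and IFNG at chr10:118441046-118445894. FASLG (Fasl in RefSeq) lies at chr1:161780691-161788495, NKG7 at chr7:43437138-43438246 and CST7 at chr2:150570415-150578944. Promoter windows of 250 bases before the gene start were found in the RefSeq table for 9 of the 10 genes, all but CD8B. They are shown for 3 genes whose patterns below differ. GZMB was far higher in tumors than in nodes, GZMA differed least between tissues, and IFNG was among the genes that fell most with tumor volume. Each is written 5′ to 3′ on the strand of the gene, ending at the base before its start. The GZMB window is chr14:56262335-56262584 (minus strand), the GZMA window chr13:113100982-113101231 (minus strand) and the IFNG window chr10:118440796-118441045 (plus strand). Capitals mark matches, on either strand, to AP-1 (TGANTCA), CRE (TGACGTCA), RUNX (TGTGGT), T-box (TCACAC) and GAS (TTCNNNGAA).
GZMB: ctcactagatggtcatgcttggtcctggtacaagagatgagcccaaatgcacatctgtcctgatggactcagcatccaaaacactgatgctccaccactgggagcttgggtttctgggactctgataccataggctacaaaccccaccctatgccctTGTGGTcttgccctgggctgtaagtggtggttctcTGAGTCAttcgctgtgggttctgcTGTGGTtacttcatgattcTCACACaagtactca
GZMA: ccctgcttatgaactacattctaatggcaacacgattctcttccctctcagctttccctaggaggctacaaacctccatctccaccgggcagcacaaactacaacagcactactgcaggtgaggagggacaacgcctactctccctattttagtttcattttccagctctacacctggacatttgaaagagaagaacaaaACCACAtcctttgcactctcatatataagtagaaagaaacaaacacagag
IFNG: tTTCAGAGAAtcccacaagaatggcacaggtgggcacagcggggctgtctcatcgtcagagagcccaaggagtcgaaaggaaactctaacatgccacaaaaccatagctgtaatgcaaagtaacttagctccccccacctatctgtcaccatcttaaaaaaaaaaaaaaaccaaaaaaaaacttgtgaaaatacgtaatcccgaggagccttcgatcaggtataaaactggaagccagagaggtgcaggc

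The GZMB window held 2 RUNX matches at 93 to 88 and 34 to 29 bases before the start, an AP-1 match at 58 to 52 and a T-box match at 15 to 10. The GZMA window held 1 RUNX match, in the reverse direction, at 50 to 45 bases before the start. The IFNG window held 1 GAS match at 249 to 241. Over the 9 windows RUNX letters were found in 5 (GZMA, GZMB, PRF1, NKG7 and CST7), against 14% of all 32841 RefSeq windows of this length. T-box letters were in 3 (GZMB, GZMK and NKG7) against 12.3% of all windows, GAS letters in 2 (IFNG and NKG7) against 7.02%, and AP-1 letters in 1 (GZMB) against 6.75%. The CRE letters were in 0 of 9, against 1.55%. Also searched, but not marked in capitals, were the NFAT letters (GGAAA), in 6 of 9 against 55.6%, and the TATA letters (TATAAA), in 1 of 9 against 12.4%. A match is a description of the letters and not a binding site.

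Tumors carried the T cell and macrophage markers and were at the floor for the B cell markers MS4A1 and PAX5 and for 3 of 4 node stroma markers, while most nodes were high in the lymphoid lists. The keratin list written for CT26 cells did not mark the tumors: its summed level had a median of 9.47 TPM in tumors and 93 TPM in day 23 nodes. Of 18 tumors, 14 were stored in RNAlater and labelled batch 3, and 4 were fresh-frozen and labelled batch 2 (TS/PD1/CYTO 52, PD1/CYTO 32, CYTO 12 and Isotype 1), so storage and batch cannot be told apart. All spleens were in batch 4 and all nodes in batch 2. RNA integrity numbers were 4.5 to 7.8 in tumors, 6 to 9 in spleens and 4.5 to 8.3 in nodes.

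Among the 18 day 16 nodes, 3 stood apart, with low lymphocyte markers. The mean log2 level of 12 T cell markers was 2.38 in PD1/CYTO 22, 3.27 in PD1 16 and 2.77 in TS/PD1/CYTO 34, and 6.78 to 7.28 in the other 15. PD1/CYTO 22, from the mouse with the largest day 16 tumor (680.8 mm3), correlated at 0.98 with the mean of the tumors and at 0.88 with that of its own kind. PD1 16 and TS/PD1/CYTO 34 had the fat cell gene ADIPOQ at 10.64 and 10.34, against 3.71 to 8.85 in the other 15, and TS/PD1/CYTO 34 also had the muscle genes ACTA1 at 12.82 and CKM at 11.74. Counts of calls on day 16 nodes are therefore given with and without these 3. Among tumors, PD1/CYTO 32 had T cell markers at a mean of 0.17 and was at the floor for CD8A, CD8B, IFNG and FASLG.

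Levels of the 10 genes in the 3 tissues were compared at day 23, to show how the killing program is spread over the tumor, the spleen and the node. GZMB, alone among the granzymes, was highest in tumors, and PRF1 was also high there. The lineage genes CD8A and CD8B, and NKG7 and CST7, were lower in every tumor and in every spleen than in any node. The share of all genes whose tissue ranges do not overlap was not counted, so such separations only describe each gene. GZMA differed least between tissues.

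Granzyme B had 4.82, 5.5 and 6.26 in tumors (lowest, median and highest of 18 log2 levels), 0.85, 2.5 and 3.29 in spleens, and 2.17, 3.13 and 4.12 in nodes. Every tumor was above every spleen and every node, while spleens and nodes overlapped. By limma over all 54 day 23 libraries, GZMB was 2.40 ± 0.16 higher in tumors than in nodes on the log2 scale (SE, adjusted p = 1.01e-17), which is 5.28-fold on TPM + 1. It was 3.11 ± 0.16 higher in tumors than in spleens (adjusted p = 1.71e-21).

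Granzyme A, a trypsin-like granzyme and the most abundant of the 3 in spleens and nodes, had 3.89, 5.25 and 6.55 in tumors, 4.22, 5.74 and 6.74 in spleens, and 4.68, 5.75 and 6.45 in nodes. The 3 ranges overlapped throughout. None of the 3 GZMA differences passed the test, with -0.34 ± 0.20 for tumors minus nodes (SE, adjusted p = 0.117 by limma, 95% interval -0.75 to 0.07), -0.42 ± 0.20 for tumors minus spleens (adjusted p = 0.0566) and 0.08 ± 0.20 for spleens minus nodes (adjusted p = 0.709). With the mouse as a block, over 50 libraries, GZMA passed as lower in tumors than in spleens (-0.44 ± 0.18, adjusted p = 0.0267 by limma). Granzyme K, another trypsin-like granzyme, was at the floor in 13 of 18 tumors, with a highest value of 0.5, and had medians of 0.31 in spleens and 1.73 in nodes. It was lower in tumors than in nodes by limma (-1.77 ± 0.14, adjusted p = 2.22e-15). Of the other 7 granzymes listed, GZMM alone is in the matrix, and it was at the floor in all tumors and spleens.

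Perforin had 3.8, 4.68 and 5.39 in tumors, 0.74, 2.39 and 3.33 in spleens, and 3.79, 4.17 and 4.62 in nodes. All tumors and all nodes were above all spleens, and tumors overlapped nodes. PRF1 was 2.25 ± 0.16 higher in tumors than in spleens (SE, adjusted p = 1.25e-16 by limma). It was 0.34 ± 0.16 higher in tumors than in nodes (adjusted p = 0.042), and this call was lost on leaving out any of 15 of the 54 libraries. The call was also lost with rescaled TPM (0.30, adjusted p = 0.061), with a pseudocount of 0.1 (0.36, adjusted p = 0.0906) and with no filter (0.34, adjusted p = 0.0638). Within batch 2, with 4 tumors and the 18 day 23 nodes, the difference was 0.005 (adjusted p = 0.976). It was kept after quantile normalization and with the mouse as a block (0.49 ± 0.18, adjusted p = 0.0114).

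NKG7 ran from 2.27 to 5.8 in tumors, 3.47 to 5.59 in spleens and 6 to 6.78 in nodes, so that every node was above every tumor and spleen. CST7 showed the same order, with 1.45 to 3.67 in tumors, 1.47 to 3.65 in spleens and 4.77 to 5.89 in nodes. Tumors were lower than nodes by 1.74 ± 0.18 for NKG7 and by 2.71 ± 0.16 for CST7, and spleens were lower than nodes as well, by 1.57 ± 0.18 and by 2.33 ± 0.16 (log2 differences ± SE, adjusted p at most 2.53e-10 by limma). Between tumors and spleens NKG7 did not pass (adjusted p = 0.41), and CST7 was 0.38 ± 0.16 lower in tumors (adjusted p = 0.0351). That CST7 call was lost with the mouse as a block (adjusted p = 0.0981), with no filter (adjusted p = 0.0546), without the 4 tumors of mice with no other tissue (adjusted p = 0.128) and without any of 11 of the 54 libraries.

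The co-receptor genes were the least abundant in tumors relative to nodes. CD8A had 0.01, 3.11 and 4.25 in tumors, 2.5, 3.91 and 4.72 in spleens, and 5.57, 6.64 and 6.99 in nodes, and CD8B had 0.01, 2.69 and 3.97, then 2.94, 4.33 and 5.17, then 5.96, 6.96 and 7.17. CD8A was 3.66 ± 0.24 lower and CD8B 4.33 ± 0.23 lower in tumors than in nodes (log2 differences ± SE, adjusted p at most 1.72e-17 by limma). Within a library CD8B was below CD8A in 17 of 18 tumors, with both at the floor in the other, and above CD8A in all 18 spleens and all 18 day 23 nodes.

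IFNG had 0.01, 1.27 and 2.42 in tumors and 0.01, 0.81 and 2.08 in nodes, and was at the floor in 17 of 18 spleens. Tumors and nodes overlapped over nearly the whole range, and the IFNG difference of 0.12 ± 0.17 did not pass (SE, adjusted p = 0.491 by limma). FASLG was low everywhere, with 0.01, 0.43 and 1.23 in tumors, 0.01, 0.04 and 0.97 in spleens, and 0.58, 1.19 and 2.12 in nodes. It was lower in tumors than in nodes (-0.75 ± 0.13, adjusted p = 2.05e-06 by limma).

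**Figure D1:**
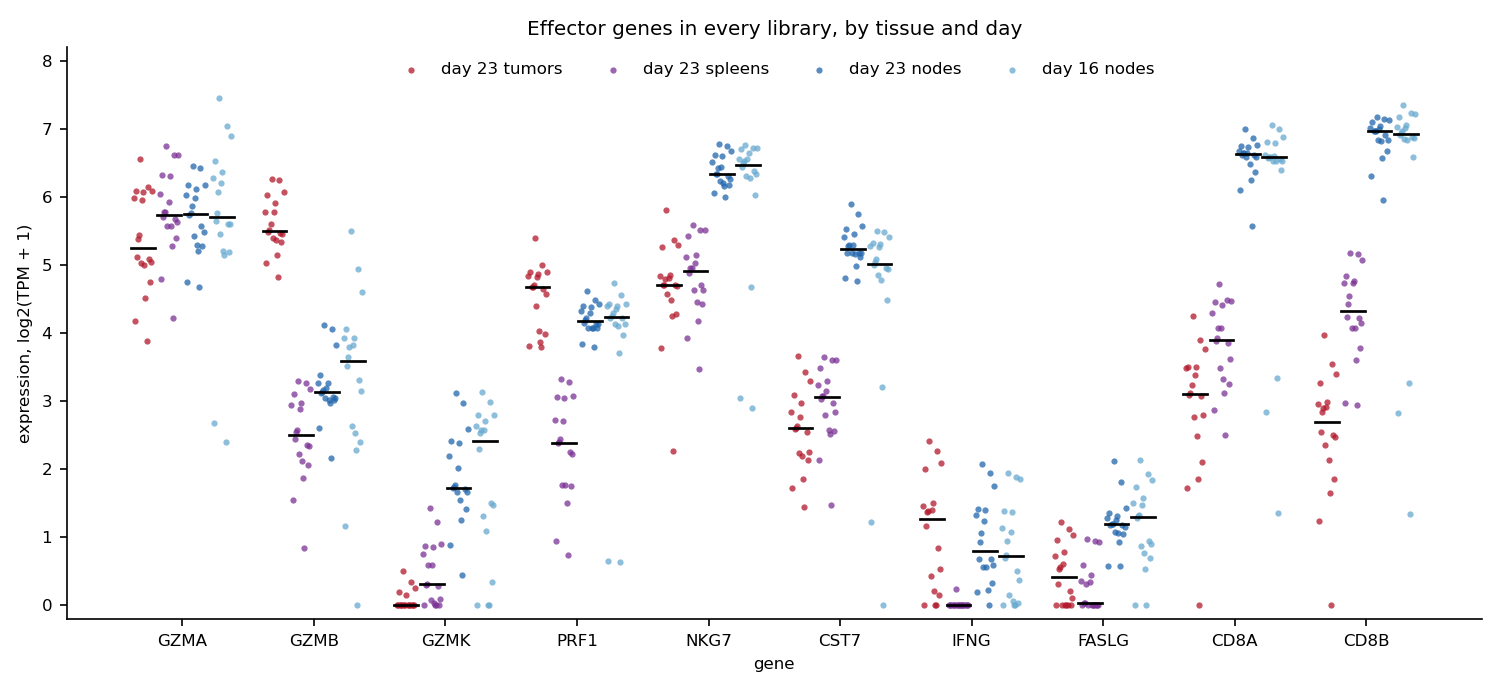
Levels of the 10 genes, log2(TPM + 1), in each library (points) with the median of each tissue and day (bars) for day 23 tumors, spleens and nodes and for day 16 nodes. The tumors stand above all spleens and day 23 nodes for GZMB and below all nodes of day 23 for NKG7, CST7, CD8A and CD8B.

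The proportion of GZMB and of PRF1 to the lineage gene CD8A differed by tissue. Within a tumor, GZMB minus CD8A was 1.7 to 4.81 on the log2 scale (median 2.38), and GZMB was the higher of these genes in 18 of 18. Within a spleen the difference was -1.84 to -0.97, and within a day 23 node -4.2 to -2.41, with GZMB the higher in 0 of 18 in each. PRF1 minus CD8A followed the same order, at 0.79 to 3.8 in tumors, -1.92 to -1.2 in spleens and -2.66 to -1.78 in day 23 nodes. The highest tumor values of both differences, 4.81 and 3.8, are from PD1/CYTO 32, where CD8A was at the floor. An excess over CD8A in tumors alone was not general to the effector genes. GZMA was above CD8A in 18 of 18 tumors (median difference 2.32) and also in 18 of 18 spleens (1.91). NKG7 was above CD8A in 18 of 18 of each, and CST7 was below CD8A in 15 of 18 tumors. At day 16, GZMB was above CD8A in 1 of 18 nodes, PD1/CYTO 22. The summed mast cell markers had medians of 85.5 TPM in tumors, 6.07 in spleens and 17.7 in day 23 nodes. The plasmacytoid dendritic cell list had a median mean log2 level of 4.59 in tumors, 3.91 in spleens and 5.54 in day 23 nodes, and of its 3 genes BST2 was higher in tumors than in nodes and TCF4 and CCR9 lower. The part of these cells in the proportions was not tested.

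In all, 8 of the 10 genes passed between tumors and nodes (2 higher, PRF1 with the limits above among them, and 6 lower), where 85.6% of all 12761 genes did (27.7% higher and 57.9% lower). Between spleens and nodes 9 were lower, where 88.8% of all genes passed (9.10% higher and 79.7% lower), and between tumors and spleens 3 were higher and 4 lower, where 78.1% of all genes passed (53.3% higher and 24.8% lower). These shares are near the background, so the counts are no result about the 10 genes. The median over all genes was -0.43 for tumors minus nodes, -0.92 for spleens minus nodes and 0.32 for tumors minus spleens. The listed genes sum to 408867 to 596061 TPM in spleens, against 778108 to 829372 in day 23 nodes, and rescaling the listed TPM to one sum moved the median of spleens minus nodes to -0.39 and that of tumors minus spleens to -0.07. The scaling decides 2 directions. GZMB in spleens minus nodes was -0.71 ± 0.16 as deposited, -0.16 after rescaling and 0.45 after quantile normalization, and FASLG in tumors minus nodes was 0.23 after quantile normalization. Spleens carry a batch label of their own, and spleen and batch cannot be told apart.

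The labels give the tumor volume of every mouse, and the genes were compared with it on a log2 scale, so that a slope is the log2 change per doubling of volume. In tumors 8 of the 10 genes were lower in larger tumors. These were IFNG, CD8B, CD8A, GZMA, NKG7, CST7, FASLG and GZMB, while PRF1 and GZMK did not pass. By limma with batch as a term, 11% of all 10913 genes tested passed (0.275% higher and 10.7% lower), and the median slope was -0.43 over the 10 genes and -0.12 over all genes.

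IFNG and CD8B had the steepest slopes. The 3 smallest tumors (180.8, 294.4 and 320.9 mm3) had IFNG at 2.09, 2.27 and 2.42, and the 3 largest (1616, 1772 and 2198 mm3) had 1.39, 0.53 and 0.01. It was at the floor in 3 tumors, all of 1390 mm3 or more. The slope was -0.66 ± 0.12 (SE, n = 18 tumors, adjusted p = 0.00246 by limma), or 0.633-fold TPM + 1 per doubling.

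The co-receptor genes fell alongside it. In the same 3 smallest tumors CD8A had 3.76, 3.39 and 4.25, and in the 3 largest 3.08, 2.79 and 1.72, with slopes of -0.64 ± 0.16 for CD8A (adjusted p = 0.0167 by limma) and -0.66 ± 0.14 for CD8B (adjusted p = 0.00509). GZMA had 6.09, 6.55 and 6.07 in the 3 smallest tumors and 5.05, 5.11 and 3.89 in the 3 largest, with a slope of -0.53 ± 0.12 (adjusted p = 0.00926). In these examples the 3 smallest and the 3 largest tumors do not overlap, and the share of all genes that separate them was not counted. Tumors between them did not all follow this order. GZMA was 6.14 in Isotype 1 at 1320 mm3 and 5.08 in PD1/CYTO 39 at 701.7 mm3.

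GZMB had 6.07, 6.26 and 6.24 in the 3 smallest tumors and 5.45, 5.03 and 5.49 in the 3 largest. Its slope of -0.29 ± 0.07 (SE, adjusted p = 0.0105 by limma) was the shallowest of the 8. NKG7 fell by 0.46 ± 0.12 per doubling (adjusted p = 0.0176), CST7 by 0.40 ± 0.10 (adjusted p = 0.0172) and FASLG by 0.30 ± 0.08 (adjusted p = 0.0239). PRF1 had a slope of -0.22 ± 0.09 (adjusted p = 0.103, 95% interval -0.42 to -0.03) and GZMK of -0.08 ± 0.04 (adjusted p = 0.18) with most tumors at the floor.

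**Figure D2:**
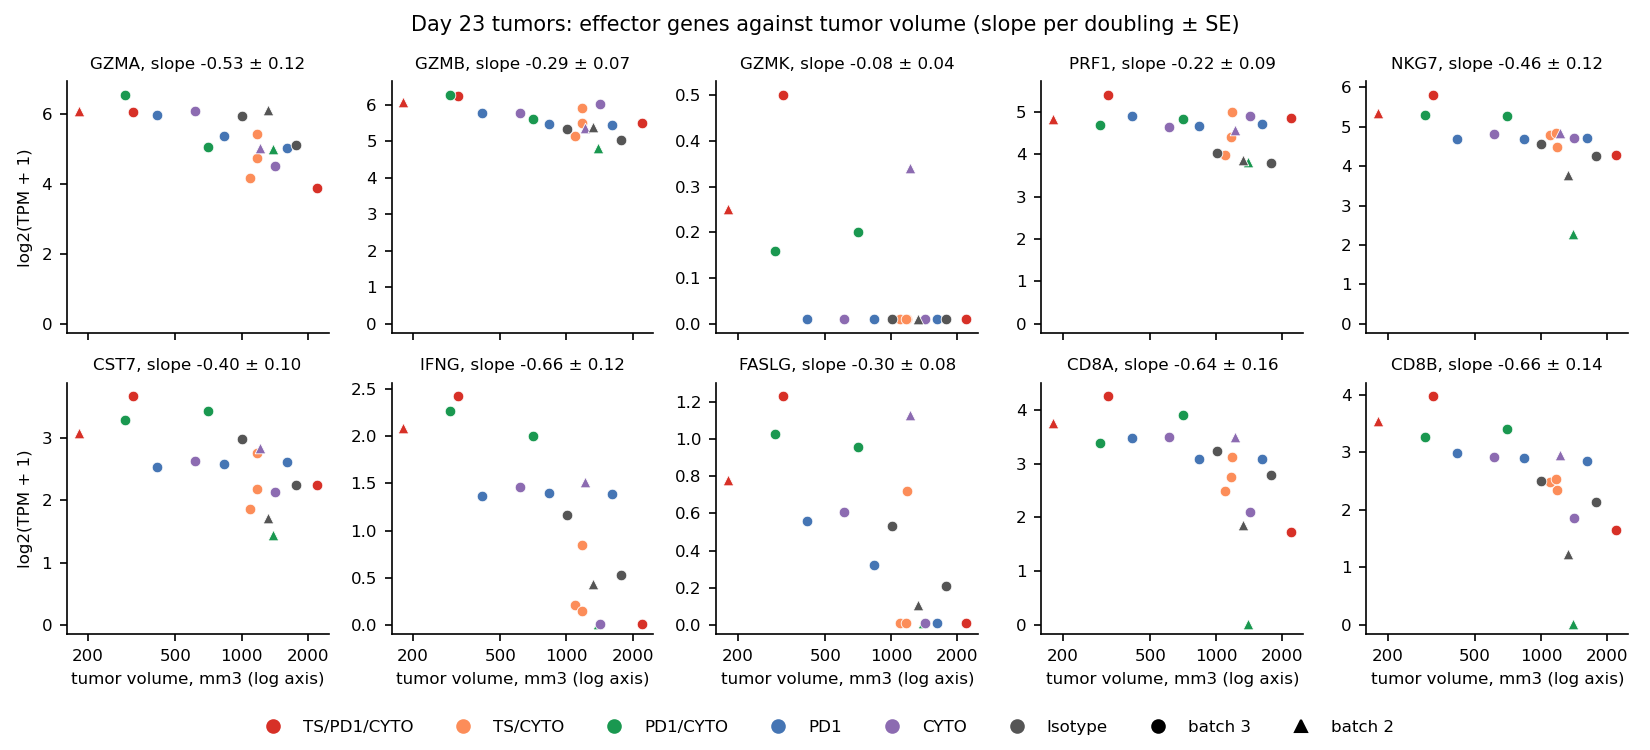
Level of each gene, log2(TPM + 1), in the 18 day 23 tumors against tumor volume (log axis), with colors for the 6 arms, circles for batch 3 and triangles for batch 2. The smallest tumors sit highest for IFNG. For CD8A and CD8B, PD1/CYTO 39 at 701.7 mm3 (3.9 and 3.4) is above PD1/CYTO 38 at 294.4 mm3 (3.39 and 3.26). The tumor PD1/CYTO 32 at 1390 mm3 is at the floor for CD8A and CD8B, and GZMB stays between 4.82 and 6.26 in all 18.

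Other genes of the pathway were lower with volume too. Of the granule processing and release genes 8 of 10 were lower, among them CTSC (-0.74 ± 0.14), the cathepsin that activates granzymes, SERPINB9 (-0.50 ± 0.09), the inhibitor of granzyme B, and RAB27A (-0.45 ± 0.09), which docks granules. Of the interferon-gamma receptor and target genes 8 of 12 were lower, led by the chemokine CXCL9 (-1.02 ± 0.20) and including CIITA (-0.72 ± 0.13) and CXCL10 (-0.62 ± 0.10). All 4 chemokines of effector cells were lower, CCL5 by 0.64 ± 0.12 per doubling (log2 slope ± SE, limma). Of the effector transcription factors 2 of 7 were, TBX21 (-0.31 ± 0.06) and ID2 (-0.28 ± 0.06), of the cytokines and receptors that induce effector genes 5 of 7 tested, and of the death ligand pathway 3 of 8 tested.

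Marker genes of whole cell types moved with volume as well. Of the T cell markers 10 of 12 were lower (median slope -0.53), of the NK cell markers 4 of 5 tested, of the macrophage markers 6 of 7, of the cross-presenting dendritic cell markers 4 of 5 tested and of the mast cell markers 4 of 5 (median -1.03). The summed T cell markers ran from 1.94 to 125 TPM over the tumors. With the T cell marker mean as a further term, 0 of the 10 genes and 0 of all genes passed by limma, with 266 genes at an unadjusted p under 0.05. The slopes were then -0.48 ± 0.19 for GZMA, -0.24 ± 0.10 for GZMB, -0.19 ± 0.12 for IFNG and 0.11 ± 0.10 for CD8A (adjusted p = 0.869 for each). With the NK cell or the macrophage marker mean as a term 0 genes passed as well, with 600 and 170 at an unadjusted p under 0.05. The marker means are themselves lower in larger tumors, so cell number and level per cell are not separated by these fits.

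The tumor slopes depended on few libraries. Without the small tumor TS/PD1/CYTO 60, 4 of the 10 genes passed (GZMA, GZMB, IFNG and CD8B) and 4.47% of all genes, and without TS/PD1/CYTO 52, 5 passed. Without PD1/CYTO 32 the same 8 passed, CD8A at -0.52 ± 0.12. In the 14 tumors of batch 3 alone 7 passed, with IFNG at -0.73 ± 0.14 and GZMB at -0.27 ± 0.09 (adjusted p = 0.0507 by limma). Volume was not independent of the arm, and with the arm as a term 4 passed, GZMA at -0.68 ± 0.11, IFNG at -0.63 ± 0.15, CD8A at -0.75 ± 0.19 and CD8B at -0.68 ± 0.17. After quantile normalization 3 passed, IFNG, CD8B and GZMA. Apart from the fit without TS/PD1/CYTO 60, the share of all genes that passed is not reported here. These counts are therefore not set against the background.

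In spleens all 9 genes tested were lower in mice with larger tumors, where 39.7% of all 11184 genes passed (4.56% higher and 35.2% lower). IFNG was not tested there, being at the floor in 17 of 18. The slopes ran from -0.17 for FASLG to -0.29 for PRF1, with adjusted p between 0.0399 and 0.0443 by limma. PRF1 had 3.08, 3.33 and 3.06 in the spleens of the 3 mice with the smallest tumors (29.18, 175.1 and 294.4 mm3) and 1.76, 1.5 and 0.74 in those of the 3 with the largest (1623, 1772 and 2198 mm3). These 2 sets of 3 do not overlap, but the spleen TS/PD1/CYTO 60, of a mouse with a tumor of 320.9 mm3, had 0.95. The share of all genes that separate these sets was not counted.

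The 6 erythroid markers moved the other way, all 6 higher with volume (median slope 0.20), beside lower values of the T cell (9 of 12), B cell (6 of 7) and macrophage (7 of 7) markers. With the erythroid marker mean as a term 0 of the 9 genes and 0 of all genes passed by limma, with 106 at an unadjusted p under 0.05. The spleen calls were also lost entirely when the listed TPM were rescaled to one sum, with the arm as a term, and without any of 8 spleens (PD1/CYTO 38, TS/PD1/CYTO 58, TS/PD1/CYTO 59, PD1 29, PD1 30, CYTO 18, Isotype 8 or Isotype 10).

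In nodes 0 of the 10 genes passed on either day, and neither did any other gene of 12203 at day 23 or 12480 at day 16 by limma (0% each, with 352 and 621 at an unadjusted p under 0.05). At day 23 all 10 slopes were below 0, from -0.23 for IFNG to -0.03 for FASLG. Most pairs of the 10 genes correlate positively across these nodes, so the signs are not independent. The share of all genes below 0 was not counted. IFNG had 1.76, 1.33 and 2.08 in nodes of the 3 mice with the smallest tumors and 0.56, 0.59 and 1.4 in those of the 3 with the largest, with a slope of -0.23 ± 0.08 (adjusted p = 0.99), and these 2 sets of 3 overlap. Without the 3 day 16 nodes that stand apart, 917 genes passed at day 16 (7.47%) and still 0 of the 10, with GZMB at -0.67 ± 0.30 (adjusted p = 0.156).

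**Figure D3:**
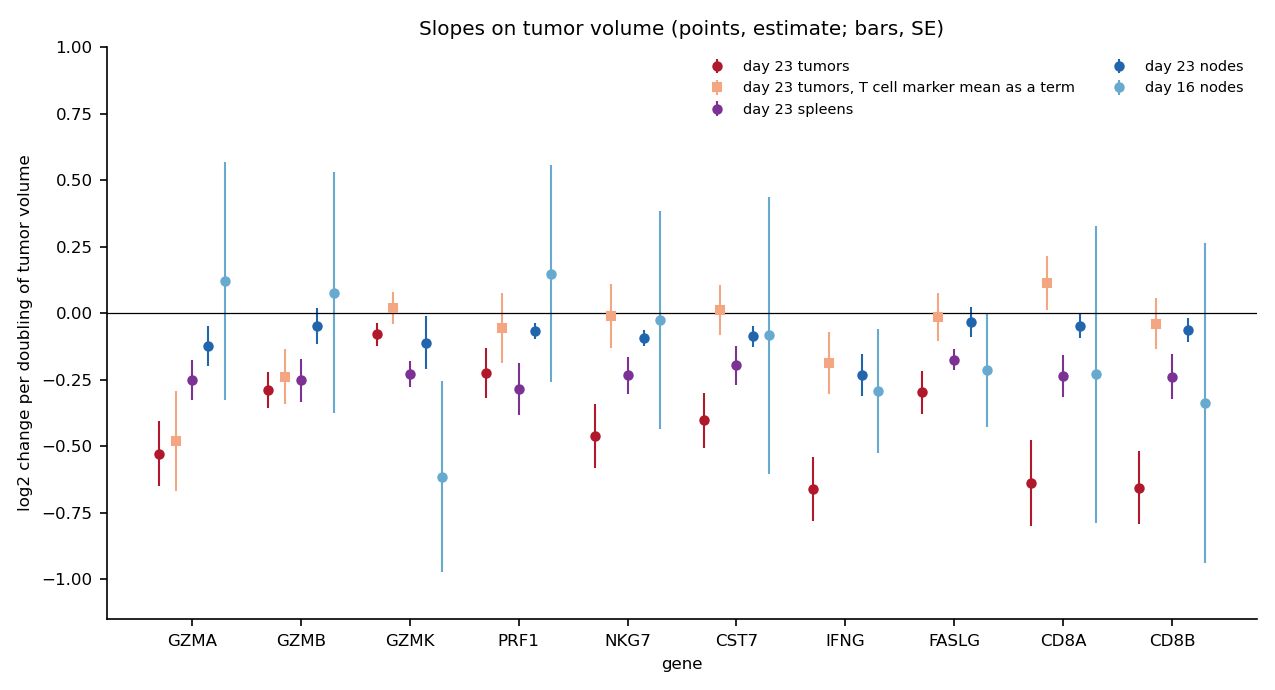
Slope of each gene on tumor volume, log2 change per doubling (points) with its SE (bars), in day 23 tumors without and with the T cell marker mean as a term, in day 23 spleens and in day 23 and day 16 nodes. IFNG, CD8A and CD8B have the steepest slopes in tumors, from -0.66 to -0.64, and day 23 nodes lie between -0.23 and -0.03.

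The slopes of tissues were compared in 1 model over the 54 day 23 libraries. They cover unlike ranges of volume, 180.8 to 2198 mm3 (3.6 doublings) for tumors and 29.18 to 2198 mm3 (6.24 doublings) for spleens and nodes. The mouse at 29.18 mm3, PD1/CYTO 40, has no tumor library. The slope in tumors was steeper than in nodes for CD8B (-0.57 ± 0.16, adjusted p = 0.0154 by limma), IFNG (-0.42 ± 0.12, adjusted p = 0.0206) and CD8A (-0.56 ± 0.17, adjusted p = 0.0244), where 7.50% of all genes were. Between tumors and spleens none of the 9 genes measured in both passed, where 5.08% of all genes were steeper in tumors. IFNG, at the floor in 17 of 18 spleens, had no spleen slope to compare. With the mouse as a block the 3 genes above no longer passed against nodes (adjusted p = 0.0698 for IFNG, 0.0862 for CD8A and 0.0899 for CD8B) and FASLG alone did (-0.36 ± 0.10, adjusted p = 0.0355). That fit also leaves out the 4 tumors of mice with no other tissue, which are the 4 of batch 2. Without these 4 and with no block, 5 of the 10 passed against nodes, where 14.6% of all genes did, IFNG, CD8A, CD8B, GZMA and FASLG (adjusted p = 0.00981 to 0.0161). None of the 10 passed against nodes without the tumor TS/PD1/CYTO 60 or without the node PD1/CYTO 40, 1 passed without the tumor TS/PD1/CYTO 59, and 5 passed without the tumor TS/PD1/CYTO 52. For these fits and the fit with the block, the share of all genes that passed is not reported here. Their counts are therefore not set against the background.

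Treatment was compared as the PD1, CYTO and TS effects, each an average over matched arms with and without that agent, in each tissue and day. None of the 10 genes passed in any of the 12 such comparisons by limma, and few of any genes did: 0% in tumors and spleens and in day 16 nodes, and 0.0164% (PD1), 0.0656% (CYTO, 0.0246% higher and 0.0410% lower) and 0.00819% (TS) in day 23 nodes. At an unadjusted p under 0.05 there were 522, 98 and 369 genes for PD1, CYTO and TS in tumors, 942, 2488 and 186 in spleens, 2207, 2533 and 1151 in day 23 nodes and 905, 82 and 139 in day 16 nodes. A p that misses the threshold does not show that the arms were alike, and intervals are given below. Tumor volume also differed between arms: the mice of the day 23 nodes had tumors of 342 ± 339 mm3 in the PD1/CYTO arm and 1466 ± 408 mm3 in the Isotype arm (SD, n = 3 each), and its part in the arm values was not tested.

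In tumors perforin was the gene with the clearest arm values. PRF1 was 4.84, 4.86 and 5.39 in TS/PD1/CYTO tumors, against 3.87, 4.03 and 3.8 in Isotype tumors, and these 3 and 3 do not overlap. The difference was 1.13 ± 0.26 (SE, n = 3 each, adjusted p = 0.359 by limma, 95% interval 0.58 to 1.68), and 0 of all genes passed in that comparison (1503 at an unadjusted p under 0.05). The gap was not particular to this arm. PD1 tumors (4.67, 4.89 and 4.71) and CYTO tumors (4.57, 4.9 and 4.64) were also above all Isotype tumors, while the PD1/CYTO and TS/CYTO arms overlapped them. How many of all genes separate arms in this way was not counted. The PD1 effect in tumors was above 0 for all 10 genes, from 0.08 for GZMK to 0.74 ± 0.36 for IFNG (adjusted p = 0.666). The 10 genes correlate across tumors, so these signs are not independent, and the share of all genes above 0 was not counted.

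In day 23 nodes IFNG differed most between arms. It had 1.33, 1.42 and 1.4 in TS/PD1/CYTO nodes, 0.93, 0.33 and 0.68 in TS/CYTO, 1.76, 2.08 and 1.95 in PD1/CYTO, 1.24, 0.57 and 0.01 in PD1, 1.06, 0.2 and 0.23 in CYTO, and 0.56, 0.68 and 0.59 in Isotype. All PD1/CYTO and TS/PD1/CYTO nodes were above all Isotype nodes, while the ranges of the TS/CYTO, PD1 and CYTO arms overlapped theirs. The PD1 effect on IFNG was 0.72 ± 0.16 (SE, n = 18, adjusted p = 0.121 by limma, 95% interval 0.38 to 1.06) and the CYTO effect 0.61 ± 0.20 (adjusted p = 0.147). PD1/CYTO nodes were 1.32 ± 0.28 above Isotype nodes (adjusted p = 0.448).

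Granzyme A had 6.45, 6.17 and 6.03 in TS/PD1/CYTO nodes against 5.57, 5.2 and 5.28 in Isotype nodes. These do not overlap, but the share of all genes that separate these arms was not counted. The difference was 0.87 ± 0.29 (SE, adjusted p = 0.405 by limma). The PD1 effect on GZMA was 0.68 ± 0.17 (adjusted p = 0.129), that on NKG7 0.22 ± 0.09 (adjusted p = 0.215), and that on CD8A -0.17 ± 0.14 (adjusted p = 0.519). Both genes that passed for PD1 in day 23 nodes are on the list of chemokines of effector cells, CCL4 (1.15 ± 0.16, adjusted p = 0.0313) and CCL3 (1.43 ± 0.21, adjusted p = 0.034), which is 2 of the 4 listed. Which cells made them was not tested. The neutrophil marker mean was 6.78 in node PD1 28 and 6.54 in PD1 30, against a median of 3.81 over the day 23 nodes. It was 4.9 in PD1 29, 3.12 to 3.6 in the PD1/CYTO nodes and 2.98 to 3.46 in the TS/PD1/CYTO nodes. With the T cell marker mean as a term 206 genes passed (1.69%) and IFNG was among them (0.73 ± 0.17, adjusted p = 0.0461). Of the 7 macrophage markers 0 passed for PD1 in these nodes (median 0.33, from 0.03 for CSF1R to 0.55 for C1QB), and their part in the IFNG values was not tested.

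**Figure D4:**
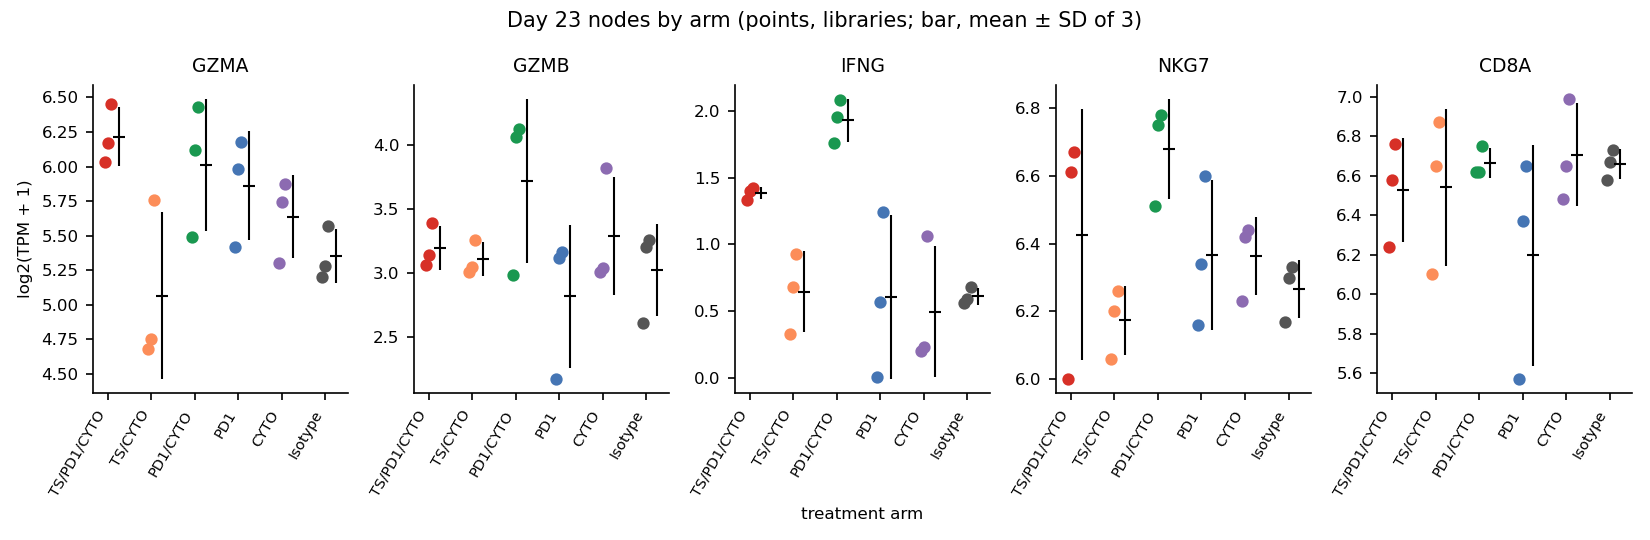
Levels of GZMA, GZMB, IFNG, NKG7 and CD8A, log2(TPM + 1), in day 23 nodes by arm, with the 3 libraries of an arm as points and their mean ± SD as a bar; the axes do not start at 0. IFNG is 1.76 to 2.08 in the PD1/CYTO nodes and 1.33 to 1.42 in the TS/PD1/CYTO nodes, against 0.56 to 0.68 in the Isotype nodes.

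Each arm was also set against Isotype in each tissue and day, and 0 of the 10 genes passed in any of these 20 comparisons by limma, with 40 to 5912 of all genes at an unadjusted p under 0.05. All of them use the same Isotype libraries within a tissue and day. The share of all genes called was at most 0.0492% in 19 of them. In spleens of the PD1/CYTO arm 25.5% of all genes passed against Isotype spleens (25.4% higher and 0.107% lower), with a median of 0.54 over all genes, and none of the 9 effector genes tested was among them. The nearest was GZMK at 0.82 ± 0.33 (SE, adjusted p = 0.0627 by limma), followed by GZMB at 0.88 ± 0.45 (adjusted p = 0.119). GZMK was 1.22, 0.76 and 0.88 in PD1/CYTO spleens, against 0.3, 0.08 and 0.01 in Isotype spleens. These do not overlap, but the share of all genes that separate these arms was not counted. Without the spleen TS/PD1/CYTO 58, whose T cell markers are the highest of all spleens, 5 of the 9 passed as higher in PD1/CYTO (58.4% of all genes), and without TS/PD1/CYTO 59, 1 passed, GZMK (adjusted p = 0.0451). The same spleen decided the TS effect. Without TS/PD1/CYTO 58, 7 of the 9 genes and 25% of all genes passed, the effector genes all lower, with GZMB at -0.95 ± 0.22 (adjusted p = 0.0348), while with all 18 it was -0.62 ± 0.32 (adjusted p = 0.604). The spleens then left in that arm, TS/PD1/CYTO 59 and TS/PD1/CYTO 60, had erythroid marker means of 8.41 and 8.155, against 6.68 in TS/PD1/CYTO 58. Their listed TPM summed to 408867 and 455639, against 596061. The part of these differences in the calls was not tested.

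Nodes of day 23 and day 16 came from different mice. With all 36 nodes none of the 10 genes and none of 12596 genes differed by day (0%, with 2227 at an unadjusted p under 0.05 by limma). Without the 3 nodes that stand apart 255 genes did (2.05%), still with 0 of the 10. GZMA was then -0.46 ± 0.16 (SE, adjusted p = 0.111) and GZMB -0.46 ± 0.20 (adjusted p = 0.171) at day 23 against day 16.

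The 3 day 16 nodes that stand apart set the day 16 treatment values. CD8A was 3.34 in PD1/CYTO 22, 2.84 in PD1 16 and 1.36 in TS/PD1/CYTO 34, and 6.39 to 7.05 in the other 15, so that the groups do not overlap. NKG7 was 4.68, 2.9 and 3.04 in these 3, and 6.02 to 6.76 in the other 15. GZMB, however, was 4.94 in PD1/CYTO 22, within the 2.29 to 5.5 of the other 15, and 0.01 and 1.17 in PD1 16 and TS/PD1/CYTO 34. All 3 belong to arms with PD1. The PD1 effect at day 16 was -1.50 ± 0.74 for CD8A and 0.58 ± 0.31 for IFNG over all 18 nodes (adjusted p = 0.508 by limma for each). Over the other 15 it was -0.14 ± 0.09 for CD8A (adjusted p = 0.413), 1.03 ± 0.23 for IFNG (adjusted p = 0.134), 1.09 ± 0.35 for GZMB (adjusted p = 0.237) and 0.39 ± 0.09 for CST7 (adjusted p = 0.154). Without the 3 nodes 0 of the 10 genes passed for PD1, CYTO or TS (1, 2 and 4 of all genes did), nor in any arm against Isotype (0 to 4 of all genes).

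**Figure D5:**
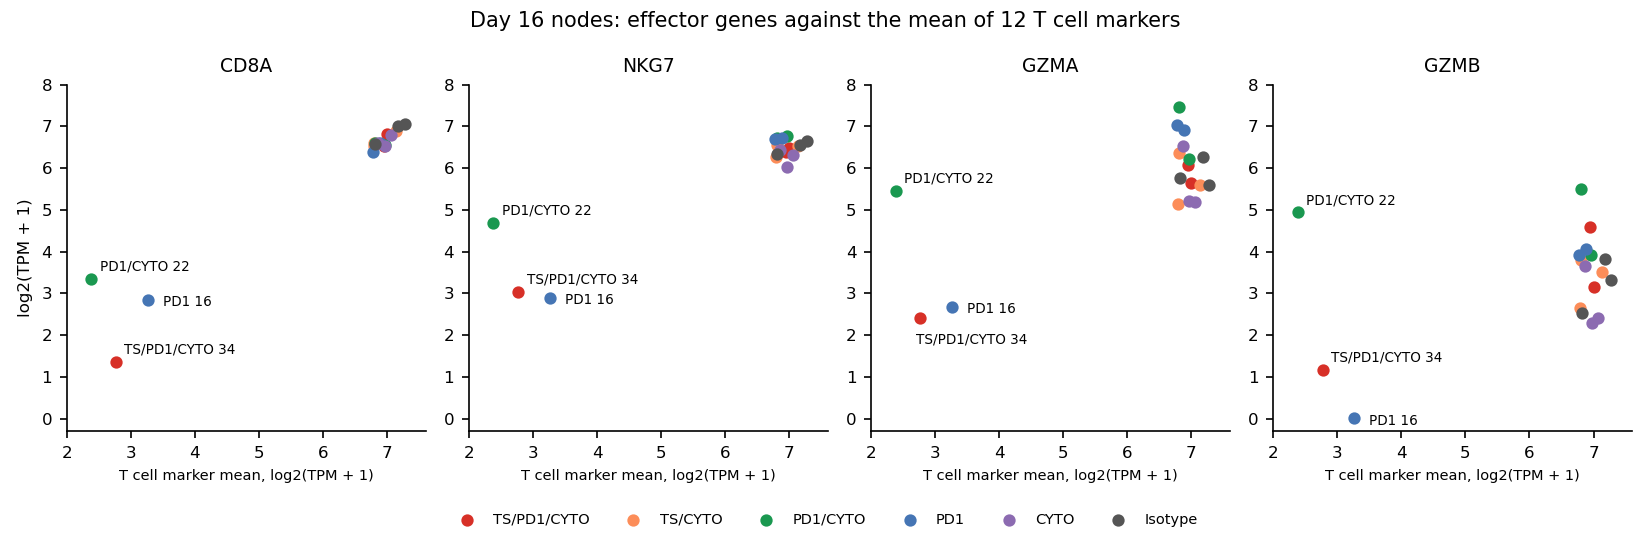
Levels of CD8A, NKG7, GZMA and GZMB, log2(TPM + 1), in the 18 day 16 nodes against the mean of 12 T cell markers, with the 3 nodes that stand apart named. Those 3 lie between 2.38 and 3.27 on the marker axis and the other 15 between 6.78 and 7.28, and GZMB in PD1/CYTO 22 is 4.94.

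The change of the PD1 effect with the day was tested over all nodes and was past the threshold for 0 of the 10 genes (0.0556% of all genes by limma), and without the 3 nodes also for 0 of the 10 (0.0563%). For IFNG, without the 3 nodes, the PD1 effect at day 23 minus that at day 16 was -0.31 ± 0.28 (adjusted p = 0.674).

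All 45 pairs of the 10 genes had a positive Pearson correlation across tumors (median 0.66, 0.13 to 0.97) and across spleens (median 0.83), and 42 of 45 had across day 23 nodes (median 0.42, -0.30 to 0.95). Across the day 16 nodes it was 45 of 45 with all 18 (median 0.76) and 37 of 45 without the 3 nodes that stand apart (median 0.59, -0.43 to 0.90). These describe 18 libraries each, or 15 without the 3 nodes, which share arms and volumes. The highest pair in tumors and in both sets of nodes was CD8A with CD8B. In tumors the lowest pair was GZMA with PRF1 (0.13), and in day 23 nodes it was GZMA with CD8A (-0.30).

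For each member but PRF1, the 3 other genes most like it are given, found by Pearson correlation over all 72 libraries, after subtracting the mean of each tissue and day. For GZMA they were the NK receptor genes NCR1, KLRK1 and KLRC1 (r of 0.88, 0.86 and 0.86), for CD8A the T cell genes CD3G, SH2D2A and LCK (0.98, 0.97 and 0.97) and for CD8B CD3G, LCK and ZAP70 (0.99, 0.97 and 0.97). For IFNG they were its target CXCL9 with IRGM and GBP6 (0.79, 0.76 and 0.74), and for GZMK the transcription factor TBX21 with CXCR3 and FABP7 (0.80, 0.80 and 0.76). For GZMB they were IL1RN, CD80 and CXCL10 (0.82, 0.80 and 0.80), but TBX21, CXCR3 and FABP7 (0.88, 0.88 and 0.83) without the node PD1/CYTO 22. FASLG ran with CD84, KLRK1 and IL10RA (0.73 each), NKG7 with SELPLG, IL2RB and VAV1 (0.95, 0.94 and 0.94) and CST7 with IRF8, ARHGDIB and CTSW (0.95, 0.94 and 0.93). The 3 day 16 nodes that stand apart are among the 72 libraries, subtracting the means does not remove their distance from the other nodes, and the libraries share arms and volumes.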

How the data were processed

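RNA of 72 libraries was measured by paired-end stranded sequencing after polyadenylated RNA enrichment, per the labels' protocols. The authors deposited 1 matrix of log2 values, log2(TPM + 1) with 2 decimals, for 16835 genes under upper-case symbols. The submitters' processing notes name bcl2fastq 2.20, STAR, RSEM 1.3.0 and mm10, and the annotation is not given in the sources used here. Counts are not given, so the depth per library is unknown. The listed TPM sum to 821758 to 864694 in tumors, 408867 to 596061 in spleens and 762275 to 859004 in nodes.

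Genes above the floor of 0.01 in at least 3 of the libraries fitted were tested in R 4.3.3 with limma 3.58.1 (trend and robust options), with Benjamini-Hochberg adjustment at 5% over all genes tested, and the scripts were tested on simulated data. Fold changes are on the TPM + 1 scale and understate changes of low genes. Volume was used on the log2 scale. The main tumor fits of volume and of treatment carry a batch term, and the fits that compare tissues do not. All tumors of the PD1 and TS/CYTO arms were of batch 3. Each agent's effect is the mean difference over the pairs of arms that differ only by that agent, which are 3 pairs for PD1 and 2 pairs each for CYTO and TS. Mouse numbers in the labels tie day 23 tissues of 1 animal, so fits with the mouse as a block were made, over the 50 libraries of mice with more than 1 tissue. Libraries of a group come from separate mice.

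All 10 genes are named in each comparison as far as their values bear on it. For each, the 3 genes of highest Pearson correlation after subtracting tissue and day means are named, among those above the floor in at least 36 libraries, and from a list the genes of smallest p. The genes most like PRF1 are not reported here. Alternatives were quantile normalization, rescaled TPM, a pseudocount of 0.1, no filter, marker means, arm, RNA integrity or mouse as terms, single batches, and each library left out. The fits without 3 day 16 nodes, without the 4 tumors of mice with no other tissue and with NK, macrophage or erythroid marker means were added after seeing the data. The 10 genes and all lists were chosen with earlier results of these data known. Sequences and positions are from RefSeq on GRCm38.p6, with 8 genes matched by symbol and 2, FASLG and CD8B, by synonym. Figures were drawn with Python 3.11.15, pandas 2.3.3 and matplotlib 3.10.9.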

Additional observations from a re-analysis of the deposited data

Results flagged for a closer look

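The volume slope of 3 genes differed between tumors and nodes in a test of the difference itself by limma over 54 day 23 libraries. The slope in tumors differed from that in nodes by -0.422446 for IFNG (SE 0.12, adjusted p = 0.0206), -0.564637 for CD8A (SE 0.17, adjusted p = 0.0244) and -0.568033 for CD8B (SE 0.16, adjusted p = 0.0154). These slopes carry no batch term, and tumors of 4 mice were set beside nodes of other mice. They also cover unlike volumes, 180.8 to 2198 mm3 in tumors and 29.18 to 2198 mm3 in nodes. With the mouse as a block the adjusted p against nodes were 0.0698, 0.0862 and 0.0899 for these 3 genes, in a fit that also leaves out the 4 tumors of mice with no other tissue. Without these 4 and with no block they were 0.00981, 0.0108 and 0.0122. For IFNG the model also gave -0.627384 (SE 0.12) for tumors minus spleens. IFNG was at the floor in 17 of 18 spleens, so its slope there could not be measured and this value is not a comparison of slopes.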

How the results depend on the processing

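Of the 10 genes, 8 were lower with tumor volume in tumors. This count was 3 after quantile normalization, 4 with the arm as a term, 0 with the T cell, NK cell or macrophage marker mean as a term, and 4 to 9 on leaving out each tumor. The share of all genes that passed is reported above for some of these fits only. The slope changed sign for CD8A (0.1129) and CST7 (0.011957) with the T cell term, and for CST7 (0.1084) and FASLG (0.043458) with the macrophage term, none past the threshold. The count of 9 in spleens was 3 after quantile normalization, 0 with rescaled TPM, no filter, or the T cell, arm or erythroid term, and 0 to 9 on leaving out each spleen. With the erythroid term the slopes were 0.020914 for CD8A, 0.062269 for CD8B, 0.0018155 for GZMA, 0.033735 for CST7 and 0.013818 for PRF1.

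For tumors minus spleens in slope the 1 call, IFNG, became 2 with rescaled TPM, but IFNG had no measurable slope in spleens. The 3 calls for tumors minus nodes became 1 with the mouse as a block, which also leaves out the 4 tumors of mice with no other tissue, 5 without these 4 and no block, and 0 to 5 on leaving out each library. The shares of all genes for the block and for leaving out each library are not reported here. With the block the counts between tissues were again 8, 9 and 7, but between tumors and spleens CST7 lost its call and GZMA gained one. PRF1 between tumors and nodes lost its call with rescaled TPM, a pseudocount of 0.1, no filter and batch 2 alone. Quantile normalization turned FASLG in tumors minus nodes to 0.22621 and GZMB in spleens minus nodes to 0.45032. For the PD1 effect in day 23 nodes the T cell term gave 1 call. On leaving out each spleen, the TS effect gave 0 to 7 calls and the arms against Isotype 0 to 5. The other treatment, day and node volume counts were 0 under every alternative run. The causes were not tested. Depth is unknown, groups hold 3 mice, and genes near the floor, such as GZMK and FASLG in tumors, carry little information.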
